A study of Homo sapiens with 4 samples.

Results

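MT-CO2 (COX2, GeneID 4513 in the GRCh38.p14 gene table) is the mitochondrial mRNA for subunit II of cytochrome c oxidase. It was taken as positions 7585 to 8268 of the heavy-strand data on chromosome MT, which are 684 nt of coding sequence in 228 codons with the stop codon. The 25 nt of untranslated sequence after it, positions 8269 to 8293, were added. Positions are given in the numbering of the deposited data, which lies 1 below the standard numbering here (7586 to 8269 for the coding region). The mRNA is 1 of 37 mitochondrial genes and 1 of 12 mRNAs in the heavy-strand data, and its 709 nt are part of 16500 positions. Of these 709 nt, 429 are A or C, and 427 of them had a mean mismatch fraction between 0.2% and 30% over the 4 libraries and were tested. The other 2, both C, lay under the lower limit, no value in the region was 0, and no position lay above the upper limit.

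The RNA came from mitochondria isolated from HEK-293T cells, an embryonic kidney line, either wild type (2 biological replicates) or lacking LRPPRC (2 biological replicates). In all 4 libraries the mitochondria were treated with 1% dimethyl sulfate (DMS) for 5 min at 37 °C, and cDNA was made with TGIRT-III, a reverse transcriptase that reads through methylated bases and writes a mismatch there. How the knockout line was derived is not stated in the labels, the LRPPRC transcript was not checked here, and no untreated library was analysed here. The files give no read counts, so the depth is unknown. The question for this mRNA is how it reacts with DMS along its length and how that differs without LRPPRC.

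Subunit II carries the copper centre that takes electrons from cytochrome c and passes them on within the enzyme. Human mitochondrial mRNAs are cut out of long transcripts, most often at flanking tRNAs. MT-CO2 lies between the aspartate and lysine tRNAs and begins at its start codon with almost no leader. LRPPRC is an RNA-binding protein of the mitochondrial matrix, known with its partner SLIRP for keeping mitochondrial mRNAs stable and available for translation. DMS methylates A and C at the face that forms base pairs, so bases in a stem or under a protein react less than open ones. G and T (U in the RNA) are not read this way and serve as background.

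Mismatches in MT-CO2 fell mainly on A and C, and both bases were less reactive in the knockout, C more so than A. At the 200 A positions the mean mismatch fraction was 2.83% in each wild-type library and 2.34% and 2.33% in the knockout libraries. At the 229 C positions it was 3.76% and 3.70% in wild type against 2.43% and 2.44% in the knockout. The groups did not overlap at either base. Group means at C were 3.73% ± 0.0433 (SD, n = 2) and 2.44% ± 0.00744 (SD, n = 2), and the mean fell by 34.7%. At A they were 2.83% ± 0.00408 and 2.33% ± 0.00437, where the mean fell by 17.5%. With 2 libraries against 2, the two-sided exact permutation test cannot go below p = 0.333, the value found for A, C and T (0.444 after Benjamini-Hochberg adjustment over the 4 bases).

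Of the background bases, G was close between the groups and T was not. G was at 0.453% ± 0.0165 in wild type and 0.459% ± 0.0250 without LRPPRC (n = 2 each), and these libraries overlapped (exact permutation p = 0.667). T had 0.908% and 0.870% in the wild-type libraries against 0.762% and 0.752% in the knockout libraries. Its mean fell by 14.8% with no overlap, a proportion near that at A. The mean at A and C was thus 4.56 ± 0.111 times that at G and T in wild type and 3.69 ± 0.0260 times in the knockout. The G and T fractions followed the A and C fractions of the paired bases in the light-strand data, with a slope over 280 positions of 49.3% ± 2.18 in wild type against 16.1% ± 0.270 in the knockout. The mean at those light-strand bases was 1.01% ± 0.0214 and 1.98% ± 0.00118, and its part in the background was not tested. One background base stood out, the G at 8268 that ends the stop codon, with 4.59% and 6.21% in wild type and 4.18% and 4.92% without LRPPRC. Its 5.40% ± 1.15 and 4.55% ± 0.524 were above every other G or T of the mRNA. Deletions were rare at A and C, 0.148% ± 0.00383 in wild type against 0.0996% ± 0.000247 in the knockout.

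Replicates gave nearly the same profile. Across the 427 tested positions, which share libraries and are not replicates, Pearson's r of log2 values was 0.998 between the wild-type libraries and 0.995 between the knockout libraries. It ranged from 0.895 to 0.902 between groups.

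**Figure D1:**
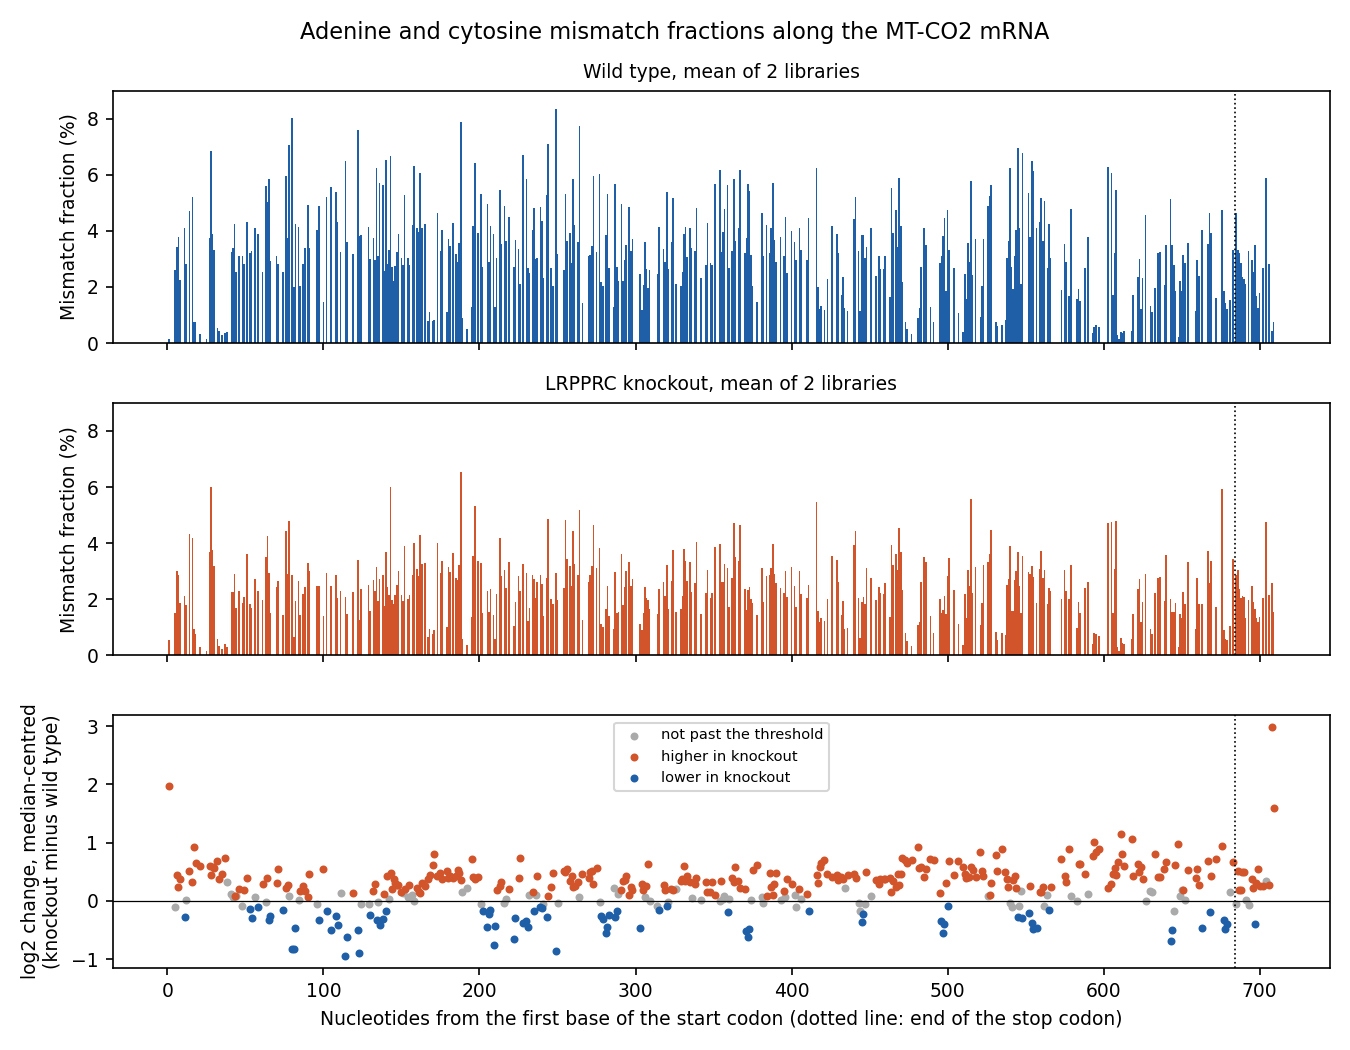
The upper panels plot the mismatch fraction (percent) at each A and C against the nucleotide from the start codon, as the mean of 2 wild-type and of 2 knockout libraries. The lower panel plots the median-centred log2 change, coloured by its call. The tallest wild-type bars reach 8.35% and the tallest knockout bars 6.52%, and the largest rises stand at the extreme ends of the mRNA.

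Because signal fell across most of the heavy strand, changes are given on 2 scales. On the first, log2(fraction + 0.001) was centred on each library's median over 9910 tested heavy-strand positions, so a change is relative to the shift of that median, which was -0.63 (knockout minus wild type). On the second, the same values were left uncentred. Fold changes on this scale understate change at low positions. For the 408 tested coding positions the mean fraction was 3.36% ± 0.0303 in wild type and 2.41% ± 0.00298 without LRPPRC (n = 2 each). The log2 change was -0.42 uncentred (SE 0.00972, limma adjusted p 2.62e-06) and 0.21 after centring (SE 0.00849, limma adjusted p 0.000193). MT-CO2 therefore fell, but by less than the heavy-strand median. Among all genes and the untranslated stretch, 84.2% were called after centring and 60.5% were called higher, and uncentred 76.3% were called and 7.89% were higher. A call alone does not set this mRNA apart.

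Position by position, limma called 347 of 427 after centring (81.3%), 271 higher and 76 lower, where 71.5% of all tested heavy-strand positions were called, 44.9% higher and 26.6% lower. Without centring 12 were higher and 338 lower, where 4.73% and 78.3% of all positions were. The median change over the 427 was 0.26 centred and -0.37 uncentred, against 0.13 and -0.50 over all tested heavy-strand positions. The libraries of the groups did not overlap at 399 of the 427, and 92.1% of all positions had such a gap. Only 6 positions were called with a centred change of at least 1 in size, all of them higher, where the share over the heavy strand was 7.53%.

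The bases parted ways. Of 200 A positions, 173 were called higher and 5 lower after centring, where 57.2% and 13.2% of heavy-strand A were. Of 227 C positions, 98 were higher and 71 lower, where 32.8% and 39.8% of heavy-strand C were. These counts depend on the common centring. With A centred on the median of A alone, 141 were higher and 6 lower, beside 39.4% and 20.2% of heavy-strand A. With C centred on the median of C alone, 146 were higher and 43 lower, beside 49% and 27.2% of heavy-strand C. On the log2 scale, coding C exceeded coding A by 0.39 ± 0.0111 in wild type and by 0.040 ± 0.00810 in the knockout, and no alternative or left-out library changed the direction of this difference of -0.35 (exact permutation p = 0.333). C fell more than A in all 12 heavy-strand mRNAs, so this was not particular to MT-CO2.

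Along the mRNA, 6 of the 7 windows from nt 51 to 400 had higher wild-type means than any window outside that stretch, and the profile was flatter in the knockout. Of the 14 windows of 50 nt tiled from the start codon, wild-type means ranged from 2.46% ± 0.0367 at nt 601 to 650 up to 4.22% ± 0.0740 at nt 101 to 150. In the knockout they ranged from 1.96% ± 0.0256, in the same low window, up to 2.83% ± 0.00283 at nt 351 to 400. All 14 windows were lower in the knockout without centring, where 90.9% of the 331 heavy-strand windows were lower, 1.81% higher and 92.7% called in all. After centring 11 were called higher, 2 lower and 1 was not called, where 85.5% of windows were called, 59.2% higher and 26.3% lower.

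The losses were largest at nt 101 to 150 and at nt 201 to 250. At nt 101 to 150 the 4 library means were 4.27% and 4.16% in wild type against 2.49% and 2.51% in the knockout, an uncentred log2 change of -0.71 and a centred one of -0.084 (SE 0.0121, limma adjusted p 0.000659). Nucleotides 201 to 250, with 27 C among 34 tested bases, had 3.97% ± 0.0573 and then 2.40% ± 0.0106 without LRPPRC, with a centred change of -0.065 (SE 0.0119, limma adjusted p 0.00211). The window between them, nt 151 to 200, held 20 A among 32 tested bases and had a centred change of 0.35. These windows thus also differed in base composition. With A alone the window at nt 101 had a centred change of 0.071, and with C alone the one at nt 201 had 0.017. The smallest losses were at nt 601 to 650, with 0.41 centred (SE 0.0292, limma adjusted p 1.85e-05), and at nt 1 to 50, with 0.40 (SE 0.0295, limma adjusted p 2.42e-05). G and T of the windows ranged in wild type from 0.350% at nt 1 to 50 up to 1.10% at nt 101 to 150, the windows where A and C were also low and highest. This did not hold throughout. At nt 651 to 700 G and T had 1.04% where A and C had 2.76%. At nt 601 to 650, the lowest window in A and C, G and T had 0.596%.

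**Figure D2:**
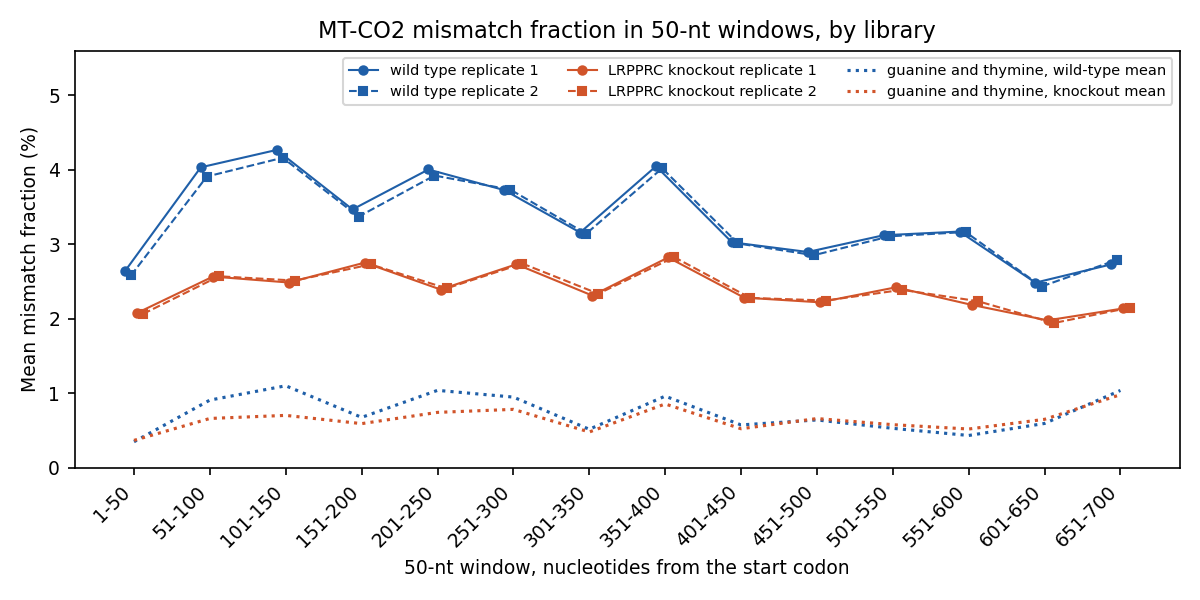
Mean mismatch fraction (percent) at tested A and C in each 50-nt window, for each of the 4 libraries, against nucleotides from the start codon, with G and T of the same windows as dotted lines. Every wild-type point lies above both knockout points of its window, and the gap is widest at nt 101 to 150.

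Pairing was predicted from sequence alone, without any reactivity. Unpaired probabilities came from RNAplfold with a window of 240 nt and pairs at most 160 nt apart. The area under the ROC curve for telling 211 A and C with a probability of at least 0.8 from 46 with at most 0.2 was 0.912 ± 0.00688 in wild type and 0.910 ± 0.00149 without LRPPRC (n = 2 each). These libraries overlapped (exact permutation p = 1). With a window of 500 nt and pairs at most 350 nt apart they no longer did, with 0.896 and 0.892 in the wild-type libraries against 0.878 and 0.877 in the knockout libraries (exact permutation p = 0.333). Spearman's rho over all 429 A and C positions was 0.423 in wild type against 0.394 in the knockout, as a description over positions of the same libraries. At C alone rho went from 0.522 ± 0.000854 to 0.415 ± 0.00158, and at A alone from 0.349 ± 0.00186 to 0.371 ± 0.000717. In the minimum free energy fold of the sequence, unpaired A and C had 3.76% ± 0.0370 in wild type and 2.69% ± 0.00197 without LRPPRC. Paired ones had 2.44% ± 0.00181 and 1.79% ± 0.00186.

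Folds of the 709 nt guided by the reactivities of each library, with pairs at most 350 nt apart, had 144 and 148 pairs in the wild-type libraries and 144 in each knockout library. The knockout folds shared all 144 pairs with each other, and 141 with wild-type replicate 1. Wild-type replicate 2 shared 119 with wild-type replicate 1 and 116 with each knockout fold. A fold thus differed more between the wild-type replicates than between wild-type replicate 1 and the knockout, and 116 pairs were in all 4. With pairs at most 160 nt apart 141 were in all 4, and when each reactivity was divided by a doubled scale all 164 were. Of the 156 pairs predicted from sequence alone, 81 were in all 4 main folds.

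The fold from sequence held 16 helices of at least 5 pairs, and 10 of them were in all 4 guided folds. These 10 parted into 5 with low and 5 with high reactivity in their arms. Since reactivity guided the folds that kept them, low arms are partly built in, whereas the sequence prediction is not. The 5 low helices had mean unpaired probabilities from 0.0722 to 0.199 in their arms, and the 5 high ones from 0.283 to 0.628. The value of 0.628 belongs to the helix that begins at the start codon and spans 212 nt. With pairs at most 160 nt apart the prediction could not form that helix, so this value does not bear on its pairing. The other high helices reached 0.609. The 6 helices not kept had wild-type arm means from 2.07% to 3.41%.

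The short low-reactivity stems are shown because they are the clearest structures of the mRNA, read 5′ to 3′ from the base column of the deposited data with paired bases in capitals.
Stem at chrMT:7750-7779: TCAGACGctcaggaaatagaaacCGTCTGA
Stem at chrMT:8071-8094: TGAGCTgtccccacattaGGCTTA
Stem at chrMT:8175-8203: TGAAAtCTGTGGagcaaaCCACAGTTTCA

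The stem at 8175 to 8203, near the end of the coding region, had the lowest arms of the 10 helices. Its inner 6 pairs had 0.368% and 0.363% at A and C of the arms in the wild-type libraries and 0.432% and 0.430% in the knockout libraries. The outer 5 pairs had 0.746% ± 0.00820 in wild type against 0.810% ± 0.0222 in the knockout. These levels lie near those of G and T, the background. The loop of the same stem was reactive, with 4.55% ± 0.0119 in wild type and 3.77% ± 0.0320 without LRPPRC. In the arms the knockout libraries were above both wild-type libraries, and in the loop below them, which an exact permutation test cannot take under p = 0.333.

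The other low stems had the same split between arms and loop. The stem at 7750, with 7 pairs, had 0.876% ± 0.0110 in its arms and 3.95% ± 0.105 in its loop in wild type. Without LRPPRC it had 0.802% ± 0.00475 and 3.40% ± 0.0285. At 8071, with 6 pairs, the arms had 0.884% ± 0.0219 in wild type against 0.927% ± 0.00707 in the knockout, and the loop 3.35% ± 0.0575 and 2.17% ± 0.0236. This stem lies inside a longer helix of 8 pairs that joins 8055 to 8062 with 8113 to 8120, shown with 3 bases on each side.
Left arm at chrMT:8052-8065: acaAGACGTCTtgc
Right arm at chrMT:8110-8123: cccGGACGTCTaaa
Its arms had 0.819% ± 0.0128 in wild type and 0.882% ± 0.0134 without LRPPRC. In 4 of the 5 low helices the arm mean was thus higher in both knockout libraries than in both wild-type libraries, against the fall over the mRNA. The inner and outer pairs of the stem at 8175 are counted separately among these 4. The G and T means of the windows that hold these 4 helices rose as well. They went from 0.643% to 0.662% at nt 451 to 500 and from 0.531% to 0.580% at nt 501 to 550. At nt 551 to 600 they went from 0.435% to 0.521%, and at nt 601 to 650 from 0.596% to 0.652%. The part of this background in the arm means was not tested.

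The 5 other helices were reactive in their arms although every fold held them. The helix that starts with the start codon pairs 7585 to 7589 with 7792 to 7796, and its arms had 2.19% ± 0.0143 in wild type against 1.25% ± 0.0115 in the knockout. The arms of the next one, 7 pairs from 7591, had 3.29% ± 0.0600 and 2.06% ± 0.0126. The remaining 3 helices, starting at 7802, 7882 and 7896, had 2.66% to 3.47% in wild type and 1.83% to 2.27% in the knockout. The mean over all A and C of the mRNA was 3.31% and 2.39%. All 3 were below it in the knockout, and in wild type only the helix at 7802 was above it. The unpaired bases that these 5 helices enclose had more than the arms in 4 of the 5. These sets of bases overlap and are not separate cases. The helix at 7591 lies inside the start codon helix, and those at 7882 and 7896 lie inside the one at 7802. Within the start codon helix the enclosed bases had 4.11% ± 0.0866 in wild type against 2.82% ± 0.00395 in the knockout. Within the one at 7591 they had 4.10% ± 0.0784 and 2.73% ± 0.0161. For the helices at 7802 and 7896 the enclosed bases were at 3.82% ± 0.00293 and 3.84% ± 0.0325 in wild type, above arms with 3.47% and 2.66%. At 7882 the order was turned, with 2.91% in the arms and 1.90% ± 0.0349 in the enclosed bases.
Start codon arm at chrMT:7582-7592: ttaATGGCaca
Its partner at chrMT:7789-7799: cccGCCATcat

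**Figure D3:**
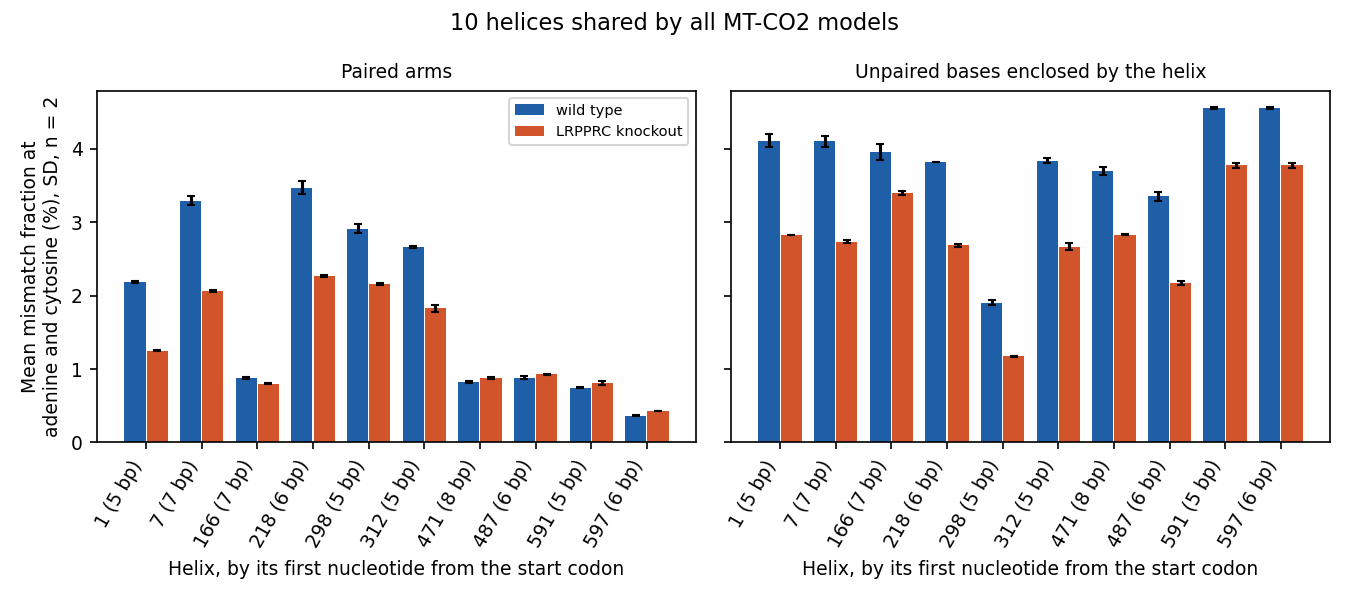
Mean mismatch fraction (percent, bars with SD, n = 2) at A and C in the arms of the 10 helices and at the unpaired A and C they enclose, by first nucleotide of each helix. The helices at nt 166, 471, 487, 591 and 597 have arm means under 1% in both groups while the bases they enclose lie between 2.17% and 4.55%. Those at nt 591 and 597 are the outer and inner pairs of the same stem and enclose the same unpaired bases.

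The start of the coding region had a low mean, which came from part of its bases. Its first 50 nt had a mean of 2.61% ± 0.0399 in wild type and 2.07% ± 0.00826 without LRPPRC, and only the window at nt 601 to 650 was lower in either group. On the log2 scale, with each base set against the median of that base in the coding region, these nucleotides minus the rest came to -0.66 ± 0.0126 in wild type and -0.47 ± 0.00238 without LRPPRC. Among the 12 heavy-strand mRNAs this was the lowest value in both groups. In the knockout ND4L was as low, at -0.47 ± 0.0178. The change of 0.19 was higher in both knockout libraries (exact permutation p = 0.333). The low level rested on 9 of the 28 tested bases, those with a mean fraction under 1%. With 0.01 as the lower limit, the other 19 stood at 0.039 ± 0.0137 in wild type against 0.13 ± 0.00496 in the knockout, and the change was 0.087. Counted from the lowest, the mRNA then ranked 9 of 12 in both groups, and the window at nt 1 to 50 changed by 0.21 after centring in place of 0.40.

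The first base of the start codon was among the lowest of the mRNA and rose. The A at 7585 had 0.140% and 0.161% in wild type and 0.5% and 0.572% without LRPPRC, so the groups were far apart. Its change was 1.97 centred (SE 0.128, limma adjusted p 0.000422) and 1.34 uncentred (limma adjusted p 0.000488). The T at 7586, a base that DMS reactivity does not read, went from 0.0465% ± 0.00212 to 0.249% ± 0.0177, a ratio of 5.34, and the G at 7587 from 0.0745% ± 0.00354 to 0.124% ± 0.0438. The G at 7588 went from 0.348% ± 0.0269 to 0.389% ± 0.0297. Each of these background bases was higher in both knockout libraries than in both wild-type libraries. Their part in the rise at 7585 was not tested. The last base of the aspartate tRNA, the A at 7584, had 1.96% ± 0.699 in wild type against 1.30% ± 0.0891 in the knockout. The A in the stop codon, at 8267, had 3.23% and 3.40% in wild type and 3.21% and 3.65% without LRPPRC, with overlapping groups, a centred change of 0.67 and an uncentred one of 0.045 that was not called (limma adjusted p 0.570).

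The largest rise of the mRNA was at its far end, in the last bases before the lysine tRNA, shown with the base that rose most in capitals.
Junction at chrMT:8285-8299: tctagagCccactgt
The C at 8292 had 0.381% and 0.468% in wild type against 2.83% and 2.36% in the knockout. Its centred change was 2.99 (SE 0.136, limma adjusted p 0.000232) and its uncentred change 2.36 (limma adjusted p 8.62e-05). The last base, the C at 8293, had 0.730% and 0.762% in wild type and 1.41% and 1.72% without LRPPRC, a centred change of 1.60 (SE 0.116, limma adjusted p 0.000536). Both bases were low in wild type and came near the level of the rest of the stretch in the knockout. The rise went on into the tRNA: the 5 bases from 8294 to 8298 were 1.75 to 4.18 times as high in the knockout. Among those 5, the T at 8297 went from 0.0510% ± 0.0141 to 0.213% ± 0.0339, so background bases moved there too. The lysine tRNA as a whole was higher, with 1.05% ± 0.133 in wild type and 1.72% ± 0.0344 in the knockout at its tested A and C. Its uncentred log2 change was 0.61 (SE 0.0844, limma adjusted p 0.00250), where 7.89% of genes and stretches were called higher. The rise was thus not confined to the border.

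**Figure D4:**
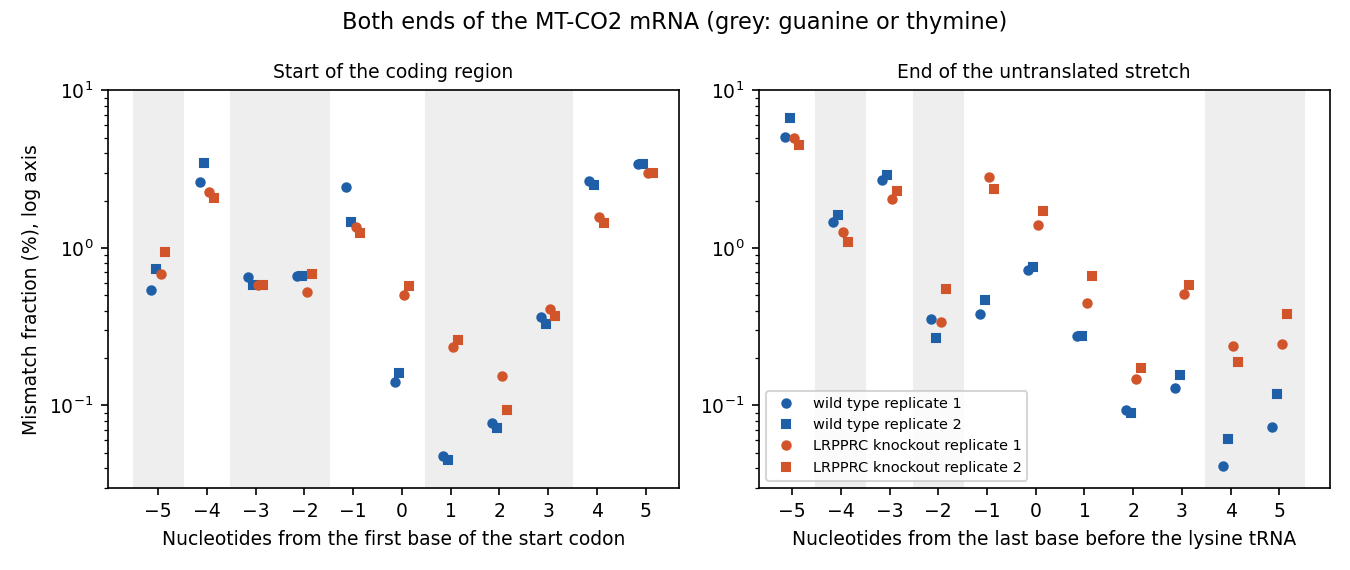
Mismatch fraction (percent, log axis) in each of the 4 libraries at the bases around the start codon and around the border with the lysine tRNA, with G and T shaded. The bases of the start codon and the G after it, and the bases from 1 before the border onward, are higher in both knockout libraries than in both wild-type libraries.

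The untranslated stretch as a whole was less reactive than the coding region, by less in the knockout, and its level depended on the base. Its 19 tested bases had a mean of 2.65% ± 0.0873 in wild type against 2.15% ± 0.0216 in the knockout (n = 2 each). The log2 change was 0.45 centred (SE 0.0218, limma adjusted p 0.000293) and -0.18 uncentred (SE 0.0201, limma adjusted p 0.00114). Without the last 2 bases, left out after their values were seen, the mean centred change over 17 bases was 0.23. Set against the coding region base by base, the stretch stood at -0.40 ± 0.0487 in wild type and -0.076 ± 0.00166 without LRPPRC, a difference of 0.32 (exact permutation p = 0.333) that was 0.096 without those 2 bases. With C only, on 15 bases, it stood at -0.64 ± 0.0264 in wild type and -0.21 ± 0.0122 in the knockout. With A only, on 4 bases, it was above the coding region, at 0.51 ± 0.129 and 0.49 ± 0.0270. With 0.01 as the lower limit it was at -0.62 ± 0.0445 and -0.25 ± 0.00771. Of the 19 bases, 14 were called higher after centring (73.7%), 1 lower (5.26%) and 4 were not called. Over all tested heavy-strand positions 44.9% were higher and 26.6% lower. Without centring 2 were higher and 14 lower, where 4.73% and 78.3% of all positions were.

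Most of the stretch is a tandem repeat of a 9-nt unit, a length polymorphism in human populations, shown with the second copy in capitals.
Repeat at chrMT:8271-8288: ccccctctaCCCCCTCTA
The copies carry the same letters but did not react alike. The first C of the unit had 3.22% ± 0.0262 in the first copy and 2.54% ± 0.0587 in the second in wild type. The fourth C had 2.29% ± 0.0120 and 1.26% ± 0.0573. For the second C the order was turned in wild type, with 2.84% ± 0.0134 and 3.49% ± 0.0212, and in the knockout that base of the second copy had fallen to 1.67% ± 0.0368, the only base of the stretch called lower (8281, centred change -0.39, SE 0.0338, limma adjusted p 0.000830). The closing A had 2.97% ± 0.201 in the first copy and 5.88% ± 1.14 in the second in wild type. Without LRPPRC it had 2.47% ± 0.139 and 4.75% ± 0.356. How the authors' alignment placed reads within the repeat is not given in the sources used here.

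Apart from the ends, the 8 largest rises included 3 bases in the arms of the stem at 8175. The A at 8195 had 0.394% and 0.409% in wild type against 0.629% and 0.605% in the knockout (centred 1.15, SE 0.0994, limma adjusted p 0.000825, uncentred 0.52). The C at 8202 had 0.407% and 0.430% against 0.589% and 0.603% (centred 1.05, SE 0.100, limma adjusted p 0.00104, uncentred 0.43). The A at 8178 had 0.605% and 0.575% against 0.792% and 0.808% (centred 1.01, SE 0.0893, limma adjusted p 0.000857, uncentred 0.38). All 3 were also called higher without centring, and all stayed below the mean of the mRNA. The G and T means of their windows rose too, from 0.435% to 0.521% at nt 551 to 600 and from 0.596% to 0.652% at nt 601 to 650. The part of this background in the 3 rises was not tested. The A at 8232 rose by 0.97 after centring from 0.223% ± 0.0255 to 0.310% ± 0.0276, and was not called without centring (limma adjusted p 0.0623). The A at 8260, in codon 226, was a reactive base that rose. It had 4.73% and 4.79% in wild type and 5.89% and 5.96% without LRPPRC (centred 0.94, SE 0.0239, limma adjusted p 0.000117, uncentred 0.31).

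The 8 largest falls were all C followed by another C, and 7 of the 8 lay between nt 51 and 250. That stretch held 124 of the 427 tested positions and 39 of the 76 called lower. The leading 4 sites are shown with the base in question in capitals.
C in codon 38 at chrMT:7691-7705: tcctagtCctgtatg
C in codon 41 at chrMT:7700-7714: tgtatgcCcttttcc
C in codon 83 at chrMT:7826-7840: tacgcatCctttaca
C in codon 27 at chrMT:7657-7671: gatcacgCcctcata
The C at 7698 had 6.55% and 6.42% in wild type against 2.16% and 2.04% in the knockout, the largest fall (centred -0.95, SE 0.0351, limma adjusted p 0.000165, uncentred -1.58). The C at 7833 was the most reactive base of the mRNA in wild type, with 8.33% and 8.37%, and had 2.89% and 2.97% in the knockout (centred -0.85, SE 0.0253, limma adjusted p 0.000130). The C at 7664 followed in rank with 8.01% and 8.02%, and had 2.88% and 2.83% in the knockout (centred -0.83, SE 0.0231, limma adjusted p 0.000129). At each of them the groups were far apart. The C at 7707 went from 3.81% ± 0.107 to 1.27% ± 0.0594 (centred -0.89). Its neighbours in the list, at 7665, 7793, 8227 and 7806, had centred changes from -0.82 to -0.66.

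The other highest wild-type bases were also C, and they differed in how much they lost. The C at 7772, in the loop of the stem at 7750, is followed by C and lost least. It had 8.03% and 7.72% in wild type and 6.52% and 6.53% without LRPPRC, which made it the most reactive base of the knockout (centred 0.36, uncentred -0.27). The C at 7706 went from 7.60% ± 0.0912 to 3.41% ± 0.0361 and the C at 8129 from 6.95% ± 0.0573 to 3.68% ± 0.105, and both are also followed by C. The C at 7848, 7828 and 7662 are followed by G. Their wild-type levels were 7.72% ± 0.0368, 7.09% ± 0.0163 and 7.06% ± 0.293, and their knockout levels 5.20% ± 0.0997, 4.85% ± 0.0368 and 4.81% ± 0.0375. Their centred changes lay between 0.068 and 0.091.

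The difference by next base was looked at over all C after these values were seen, and is given as a description. Among all tested heavy-strand C, 32.8% were called higher after centring and 39.8% lower, and these shares are not split by next base here. Of 80 tested C followed by C, 24 were called higher after centring and 40 lower, with a median change of -0.11 centred and -0.74 uncentred. Of 57 followed by A, 36 were higher and 9 lower, with a median of 0.24 centred and -0.39 uncentred. Of 29 followed by G, 15 were higher and 4 lower, with a median of 0.19 and -0.44. The 61 followed by T lay between, with 23 higher, 18 lower and a median of 0.052 and -0.58. The fall also differed by the base before, and was proportionally largest for C after C. Such C had a mean of 3.03% in wild type and 1.82% in the knockout, beside 3.97% and 2.33% for C before C. C after A had 4.57% and 3.19%, C after G 3.57% and 2.37%, and C after T 3.87% and 2.49%. Runs of C count on both sides, and the part of each side was not tested. In the coding region, C before C exceeded other C by 0.33 ± 0.0102 on the log2 scale in wild type and by 0.0071 ± 0.0152 in the knockout. The difference of -0.32 had the largest size of the 12 heavy-strand mRNAs, in all of which it was negative, with the smallest size, -0.15, in COX3. In wild type the excess of MT-CO2 and that of ND3, 0.32 ± 0.0108, were the highest and differed by less than their spread. These ranks depend on low bases: with 0.01 as the lower limit the excess in MT-CO2 was 0.075 ± 0.00752 in wild type against -0.21 ± 0.0144 in the knockout. Counted from the lowest, its wild-type excess then ranked 3 of 12, and its difference of -0.28 came after that of ND2, -0.30, and was level with that of ND4.

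Codon position was set against reactivity in the coding region. The log2 level at codon position 3 minus that at positions 1 and 2 was -0.084 ± 0.00639 in wild type and -0.080 ± 0.00176 without LRPPRC, and these libraries overlapped (exact permutation p = 0.667). With C only it was larger, -0.19 ± 0.00175 in wild type against -0.17 ± 0.00801 in the knockout, with no overlap (exact permutation p = 0.333), and with A only it was above 0, with 0.038 ± 0.0120 and 0.031 ± 0.00631. The highest mean was at C in second positions, 4.37% ± 0.0644 in wild type against 2.79% ± 0.00187 in the knockout.

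Among the heavy-strand mRNAs, MT-CO2 gained in standing in the knockout, while its level against the others depended on the bases counted. Its coding mean ranked 9 of 12 in wild type, where its neighbours ATP8 with 3.41% ± 0.0687 and ND3 with 3.33% ± 0.0495 did not differ from its 3.36% ± 0.0303 beyond their spread. In the knockout it ranked 5 of 12, where ND1 with 2.41% ± 0.0101 did not differ from it beyond the spread and ATP8 with 2.42% ± 0.00303 was above it in both libraries. Against the mean of the other 11 mRNAs on the log2 scale, it stood at -0.10 ± 0.00212 in wild type and 0.017 ± 0.00387 without LRPPRC. With 0.01 as the lower limit it stood at 0.00076 ± 0.00138 and 0.11 ± 0.00460, so the wild-type deficit was gone. The knockout value was -0.0033 ± 0.00390 with deletions counted and -0.058 ± 0.00325 with C only. The gain of 0.12 came after that of COX1, 0.16, and before that of ATP8, 0.10 (exact permutation p = 0.333). All 12 mRNAs fell uncentred, and only COX1 fell less than MT-CO2. The genes with the most similar centred values over the 4 libraries, by Euclidean distance, were COX1 (0.0447), ND3 (0.0522) and ATP8 (0.108).

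**Figure D5:**
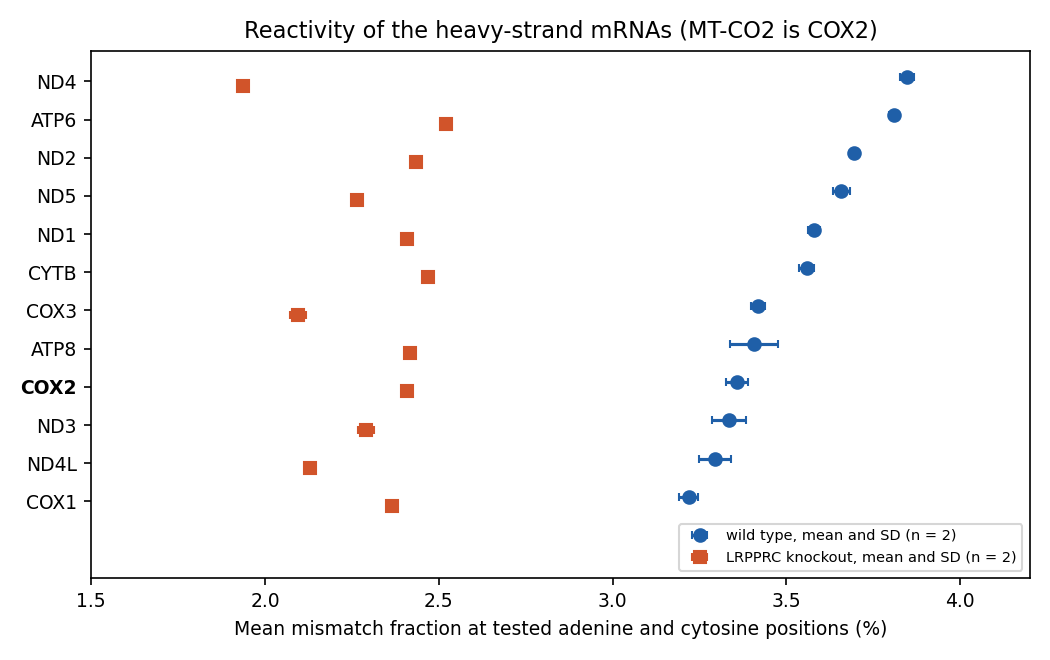
Mean mismatch fraction (percent, points with SD, n = 2) at tested A and C of the 12 heavy-strand mRNAs, ordered by the wild-type value. COX2 moves from 3.36% in wild type to 2.41% in the knockout, and every mRNA is lower in the knockout.

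The unevenness of the signal within the coding region changed little. The Gini index, which is 0 when all positions react alike, was 0.273 and 0.272 in the wild-type libraries and 0.259 and 0.261 in the knockout libraries. The change of -0.013 (SE 0.00251, limma adjusted p 0.0415) was past the threshold, as were 47.4% of the genes and stretches tested. With a replicate block the limma adjusted p was 0.0838, and without any 1 library it ranged from 0.102 to 0.288. The index of C alone changed by 0.012 (limma adjusted p 0.0463) and that of A alone by -0.00025 (limma adjusted p 0.933), so the direction for the whole was not shared by the bases.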

How the data were processed

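DMS mismatch fractions were analysed for 4 libraries, 2 wild type and 2 LRPPRC knockout, in 8 files. The deposited values are fractions per position, mismatches alone and with deletions, per the file headers. Cutadapt and Bowtie2 were used by the authors, per the submitters' processing notes. Their versions, read filters and coverage limits are not given in the sources used here. Without counts or depth, no interval was computed.

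Positions with a mean fraction from 0.002 to 0.3 were analysed as log2(fraction + 0.001), centred on the library median. Single positions, 50-nt windows and genes with at least 10 tested positions were fitted with limma 3.58.1 in R 4.3.3 (eBayes with trend; none for the Gini index) and Benjamini-Hochberg adjustment at 0.05, over all features. Single values were compared by exact permutation. The limma p-values rest on the spread between 2 libraries a group, with variance shared across all features of a fit. The exact permutation p-values rest on relabelling the 4 libraries. Folds used ViennaRNA 2.7.2 at 37 °C (slope 1.8, intercept -0.6 for reactivities). The scripts were tested on simulated data. Named positions are the 8 largest rises and 8 largest falls among called positions with no overlap, the 8 highest wild-type positions, and the start codon, stop codon and untranslated stretch. Members, lists and rules were chosen with earlier results of these data known. Alternatives covered the pseudocount, limits, centring, bases, deletions, block, folding span and left-out libraries.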

Additional observations from a re-analysis of the deposited data

How the results depend on the processing

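Direction depended on the scaling. Without centring the coding change was -0.42 and that of the untranslated stretch -0.18, with 12 positions higher and 338 lower, and 0 windows higher and 14 lower. Windows that were higher after centring then had, from the start codon on, -0.23, -0.61 (nt 51 to 100), -0.28, -0.45, -0.44, -0.48, -0.39, -0.28, -0.27, -0.35, -0.22 and -0.41. Of the 347 positions called after centring, 88 kept call and direction without centring and 184 were called the other way. The window at nt 51 to 100, at 0.018 and not called, was -0.0045 with a pseudocount of 0.01, -0.00085 with quantile normalization, -0.025 centred on the highest 5% of positions, -0.0065 with 0.01 as the lower limit, -0.0028 with C only, and from -0.0037 to 0.039 without 1 library. With A only 141 positions were higher and 6 lower and 0 windows were lower, and with C only 146 and 43, with 1 window lower. Values were then centred on the median of that base alone. The window at nt 101 was 0.071 with A only, and that at nt 201 was 0.017 with C only. The Gini change was -0.0067 with 0.01 as the lower limit, -0.00025 with A only, 0.012 with C only, -0.0089 with deletions and -0.013 with a replicate block, and from -0.014 to -0.012 without 1 library; apart from C only, none of these was past the threshold. The untranslated stretch against the coding region was -0.020 with A only, on 4 positions. The codon contrast, 0.0034, was -0.0013 with no lower limit, -0.0063 with a limit of 0.01, -0.0076 with A only, 0.018 with C only, and from -0.0011 to 0.0079 without 1 library. The ROC difference of -0.0019 was 0.010 with C only, -0.017 with a window of 500 nt and from -0.0068 to 0.0030 without 1 library. The difference in rho, -0.029, was 0.0086 with a window of 500 nt and 0.022 with A only. The G difference, 0.0060, was -0.0087 with deletions and ranged from -0.012 to 0.024 without 1 library. The cause of these shifts was not tested. The deviations of same-numbered libraries did not correlate over 9910 heavy-strand positions (Pearson's r 0.00070, 2 pairs). With 2 pairs this cannot settle whether the replicate numbers mark a shared day or batch. The replicate block left 337 positions called, 333 of them shared, and among genes, windows and named positions it changed the call of the Gini index alone. That window was called with A only and without wild-type replicate 1, and the A at 8232 was not called without centring. Levels within a group also turned: with 0.01 as the lower limit the first 50 nt went from -0.66 to 0.039 in wild type, the standing against the other mRNAs from -0.10 to 0.00076, the codon contrast from -0.084 to 0.010, and the knockout excess of C before C from 0.0071 to -0.21 (-0.020 with a pseudocount of 0.01 or with deletions). With deletions the knockout excess of C over A went from 0.040 to -0.029 and the knockout standing from 0.017 to -0.0033, and with C only the latter was -0.058. For the other changes between groups the direction and side of the threshold held under each alternative run. Depth is unknown, which limits the reading of low positions most.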
